A study of Mus musculus with 11 samples.

Results

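The genes described here encode the machinery by which a nerve terminal stores transmitter in vesicles and releases it. They were taken as the 35 gene symbols of a fixed list: SNARE proteins, complexins, synaptotagmins, Rab3 GTPases, active zone scaffolds, synapsins, vesicle membrane proteins and vesicular glutamate transporters. Each symbol was matched to 1 Ensembl gene identifier, so that 35 of the 39017 genes counted were described. All 35 passed the filter on low counts in both tissues, and the lowest read count of any of them in any library was 140.

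A synaptic vesicle is filled with glutamate by a vesicular transporter, tethered at the active zone by large scaffold proteins together with Rab3, and primed by Munc13 proteins. A SNARE protein of the vesicle then zips together with SNARE proteins of the plasma membrane. Complexins hold and help this complex, and synaptotagmins trigger fusion when calcium enters. In the forebrain, most terminals that release glutamate use the transporter VGLUT1 and the SNARE synaptobrevin-2, while other neuron classes rely more on related family members such as VGLUT2, synaptobrevin-1 or synaptotagmin-2.

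RNA-sequencing was performed on conditional Dicer knockout mice (KO) and controls, aged 13-14 weeks. Dicer is the enzyme that cuts microRNA precursors to their mature form. The KO mice were Camk2a-Cre;Dicer flox/flox, in which the Camk2a promoter, active mainly in forebrain excitatory neurons, drives Cre; the genotype of the controls was not given in the sources used here. In the neocortex 3 KO libraries came from animals D5130, D5132 and D5133 and 3 control libraries from D5129, D5134 and D5135, all males. In the hippocampal CA1 region 2 KO libraries came from the males D5130 and D5133, and 3 control libraries from the males D5134 and D5135 and the female D5138. Values per library are given below in this order of animals, and 4 animals gave both tissues.

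The neocortex libraries were stranded and the CA1 libraries unstranded, so levels are not compared between tissues. A neocortex library held 43144097 to 58329441 gene reads, and a CA1 library 24806581 to 35684618. Between 1.93% and 1.998% of neocortex reads and between 1.79% and 1.88% of CA1 reads belonged to the 35 genes. Dicer1 itself had 63.3, 59.0 and 60.6 CPM (counts relative to the scaled library total) in KO neocortex, against 66.5, 59.3 and 62.4 CPM in control neocortex. It had 73.3 and 71.6 CPM in KO CA1, against 74.0, 68.7 and 75.2 CPM in control CA1. A count over the whole gene does not check the loss of the floxed exons. The CA1 libraries also held transcripts of Prox1 (109 to 157 CPM) and Dsp (42.8 to 60.9 CPM), from a list of 13 dentate gyrus and CA3 markers. The neocortex libraries, made with the other kit, held 14.1 to 17.9 and 0.0468 to 0.274 CPM of them. The part of dentate gyrus cells in the dissected CA1 piece was not tested.

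MicroRNAs, the products of Dicer, bind messages mainly through bases 2 to 8, the seed, and mostly lower them. Sequences of microRNAs known from brain and of their seed matches in these genes are shown first; the microRNAs themselves were not measured. Mature sequences are from RefSeq (GRCm38.p6), written 5′ to 3′ with the seed in capitals, for the families with a match in a gene that is described in detail below.

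miR-34a-5p: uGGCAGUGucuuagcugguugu
miR-135a-5p: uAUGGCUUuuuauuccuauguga
miR-138-5p: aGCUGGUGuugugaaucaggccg
miR-137-3p: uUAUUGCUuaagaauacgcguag
miR-26a-5p: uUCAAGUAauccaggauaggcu
miR-153-3p: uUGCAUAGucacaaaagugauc
miR-27b-3p: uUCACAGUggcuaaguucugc
miR-128-3p: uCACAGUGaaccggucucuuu
miR-103-3p: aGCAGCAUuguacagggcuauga

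A match was an 8-letter word in the 3′ UTR, the complement of the seed followed by A, on the transcript's own strand only. The words were CACTGCCA for miR-34a, AAGCCATA for miR-135a, CACCAGCA for miR-138, AGCAATAA for miR-137, TACTTGAA for miR-26a, CTATGCAA for miR-153, ACTGTGAA for miR-27b, CACTGTGA for miR-128 and ATGCTGCA for miR-103. Also searched were CTACCTCA (let-7a), ACCAAAGA (miR-9), TGGTGCTA (miR-29a), TGTTTACA (miR-30a), TGAATGTA (miR-181a) and AAGCACAA (miR-218). Words for miR-124-3p and miR-485-5p were not searched, so a gene without a match is one without these 15 words. The words of miR-27b and miR-128 overlap in all but their end letters. The 3′ UTR windows of 30 bases below are from GENCODE M21 transcripts on GRCm38, with the match in capitals and its coordinates. For each gene, the protein-coding transcript with the longest 3′ UTR was searched, which need not be the main one in brain. The Syn3 match lies within the gene, far from its 3′ end at 86055125. The Sv2c match lies outside the deposited range of the gene, which starts at 95959443. They belong to the genes that changed in either tissue and to Bsn, whose change lay nearest to the threshold.

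Cplx2, miR-34a-5p, chr13:54380324-54380331, plus strand: ttcatgctcccCACTGCCAggaggaccact
Cplx2, miR-34a-5p, chr13:54380752-54380759, plus strand: tcctgggacccCACTGCCAggctaggcccg
Cplx2, miR-135a-5p, chr13:54381907-54381914, plus strand: tccaatagttaAAGCCATAtcagttagacc
Cplx2, miR-138-5p, chr13:54383144-54383151, plus strand: cacctggaaatCACCAGCAgtgaaaagaaa
Syt2, miR-27b-3p, chr1:134748066-134748073, plus strand: tctgtttcttgACTGTGAAggcaacatagt
Syt2, miR-135a-5p, chr1:134749073-134749080, plus strand: cattgattaaaAAGCCATAtatatgttagt
Syt2, miR-34a-5p, chr1:134750296-134750303, plus strand: ttccaaaccttCACTGCCAcctggggggcg
Syt2, miR-128-3p, chr1:134751422-134751429, plus strand: tgagaaggggaCACTGTGActtgaagatat
Slc17a6, miR-137-3p, chr7:51670692-51670699, plus strand: tttgtgtaccaAGCAATAAgtgcaaagcat
Sv2c, miR-26a-5p, chr13:95956777-95956784, minus strand: gtattaaacagTACTTGAAaacacacacac
Syn3, miR-103-3p, chr10:86292078-86292085, minus strand: aagccacagacATGCTGCAagtgtctctgg
Bsn, miR-153-3p, chr9:108098631-108098638, minus strand: tctctaatgttCTATGCAAtgaaatataaa

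Of the 35 genes, 23 (65.7%) held at least 1 of the 15 words, against 6561 of 15164 genes with a 3′ UTR (43.3%). The 3′ UTRs of the 35 were longer, with a median of 2359 bases against 1159.5 bases over all genes with one. Syt2 held 6 matches, of which 4 are shown, Cplx2 and Syt7 held 4 each, and Sv2a and Syt1 held 3 each. Vamp1, described next as the gene that changed in both tissues, held none of the 15. These are matches of letters, not measured binding sites.

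In the neocortex, 2 of the 35 genes passed the test, both lower in KO: Vamp1 and Cplx2. In the CA1, 5 passed it: Vamp1, Syt2, Sv2c and Slc17a6 were lower in KO, and Syn3 was higher. The other 33 and 30 genes lay within -0.17 to 0.26 and -0.13 to 0.22 on the log2 scale. The test was edgeR's quasi-likelihood F-test with Benjamini-Hochberg adjustment over all genes and a threshold of 0.05. The share of genes called in this way was 2.71% of 16971 in the neocortex (1.51% higher and 1.2% lower in KO), against 2 of 35 here. For the CA1 it was 3.89% of 18274 (2.47% higher and 1.41% lower), against 5 of 35 here. At an unadjusted p under 0.05 by edgeR stood 3049 of 16971 genes in the neocortex and 3159 of 18274 in the CA1. Among the 35 there were 12 and 8. Counts at an unadjusted p given below are to be read against these. DESeq2, the alternative test, called 487 genes higher and 435 lower in KO neocortex, and 507 and 417 in KO CA1. The 35 genes had a median absolute log2 fold change of 0.10 in the neocortex and 0.07 in the CA1, against 0.11 and 0.13 over all genes tested. They were also more abundant. Their median control level per kilobase of exon was 60.7 CPM in the neocortex and 40.8 CPM in the CA1. Over protein-coding genes tested it was 4.94 and 4.95 CPM. The part of abundance in the smaller fold changes was not tested. In bulk tissue, fewer cells of a type and less RNA per cell cannot be told apart, and this holds for every change below.

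**Figure D1:**
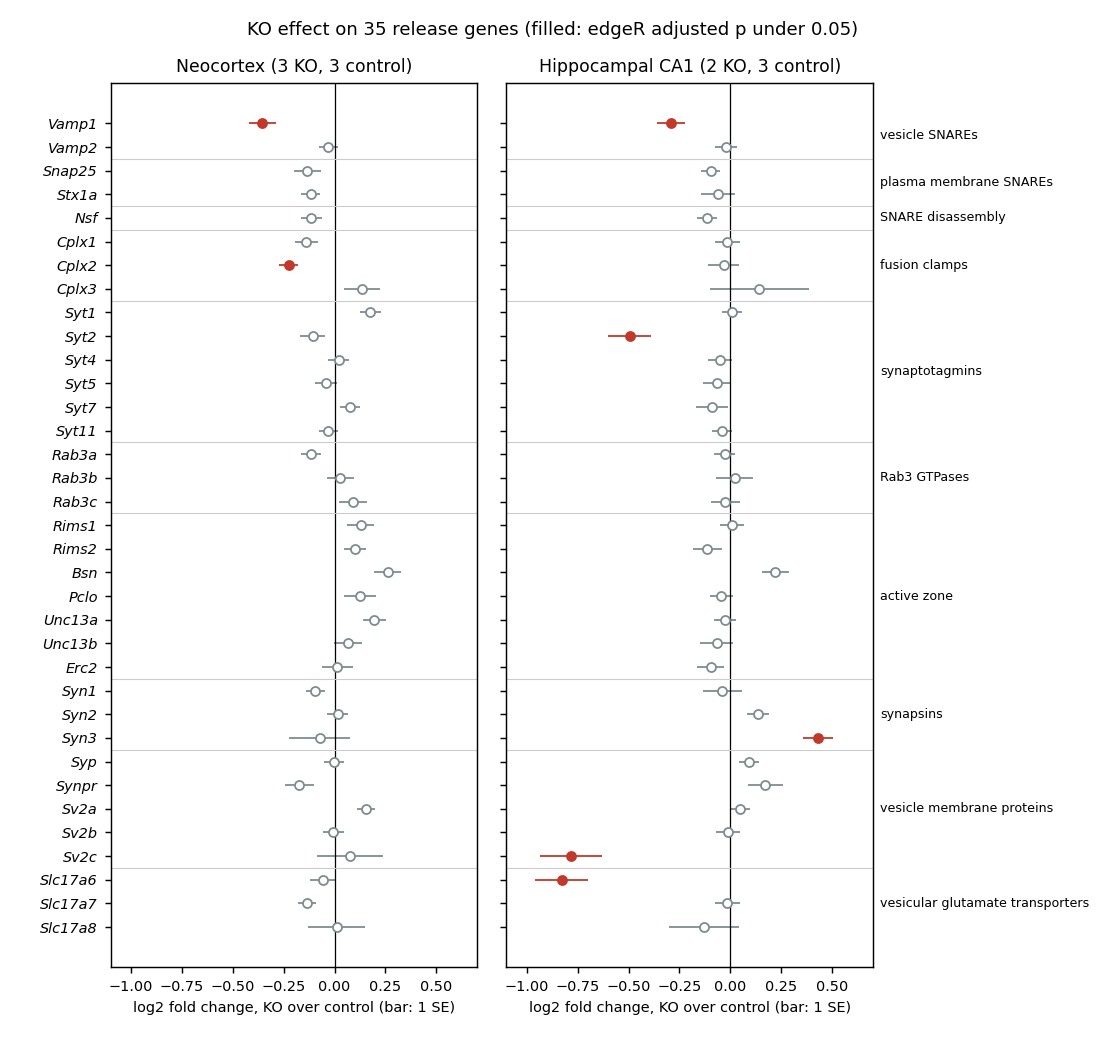
Log2 fold change of each of the 35 genes, KO over control, in neocortex (left) and CA1 (right), grouped by role; bars are 1 standard error and filled points passed an adjusted p of 0.05. Filled points are Vamp1 and Cplx2 in the neocortex, which turn to above 0 when libraries are scaled by ERCC reads, and Vamp1, Syt2, Sv2c, Slc17a6 and Syn3 in the CA1.

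The vesicle SNAREs were the pair in which the rarer member fell and the abundant one did not pass the test. Vamp1 (synaptobrevin-1; ENSMUSG00000030337, chr6:125215551-125245964) had 214, 188 and 197 CPM in KO neocortex, against 251, 277 and 237 CPM in control neocortex. All 3 KO libraries lay below all 3 controls. Its mean was 199.6 ± 13.3 CPM in KO and 255 ± 20.3 CPM in control neocortex (SD, n = 3 each). The KO effect was -0.35 on the log2 scale (adjusted p = 0.0176 by edgeR, SE 0.066). In the CA1, Vamp1 had 148 and 135 CPM in KO, against 165, 171 and 184 CPM in controls, again with no overlap. Its log2 fold change there was -0.29 (adjusted p = 0.0285 by edgeR, SE 0.068). KO thus held 78.2% of the control level in the neocortex and 81.7% in the CA1.

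Vamp2 (synaptobrevin-2), the main vesicle SNARE of forebrain terminals, had 1569, 1530.4 and 1561 CPM in KO neocortex, against 1585, 1649 and 1529 CPM in controls. CA1 values were 1266 and 1161 CPM in KO, against 1254, 1248 and 1191 CPM in controls. The libraries overlapped in both tissues, with log2 fold changes of -0.03 (SE 0.047) and -0.02 (SE 0.054). The neocortex libraries fell into 2 sets by their profile of ERCC RNAs, synthetic standards added to each neocortex library, and both sets held both genotypes. For Vamp1, set 1 (KO D5130 and D5132, control D5129) gave -0.32 and set 2 (KO D5133, controls D5134 and D5135) gave -0.39. In the fit with the set as a term it was -0.35 and no longer passed (adjusted p = 0.0563 by edgeR). Without D5132, D5133 or D5129, its neocortex log2 fold change was -0.31, -0.34 or -0.36 and its adjusted p 0.0758, 0.124 or 0.0528. Its CA1 value without D5133 or D5138 was -0.23 or -0.25, with an adjusted p of 0.193 or 0.161.

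Parvalbumin neurons, which fire fast, are known for synaptobrevin-1 and synaptotagmin-2, so their markers were read beside these genes. Of 8 parvalbumin neuron markers, 0 passed edgeR's test in either tissue. Their summed level was 692 to 725 CPM in KO and 683 to 740.1 CPM in control neocortex, and 516 to 523 CPM in KO and 489 to 515 CPM in control CA1. Pvalb itself had 97.6, 105.6 and 89.0 CPM in KO neocortex, against 99.8, 107 and 83.5 CPM in controls. CA1 values were 41.4 and 38.5 CPM in KO, against 45.0, 39.9 and 44.1 CPM in controls. The marker sums overlapped in the neocortex and lay higher in KO in the CA1. Most of each sum was Kcnc1 and Kcnc2. In the CA1 Kcnc1 averaged 229 CPM in KO and 211 CPM in controls, and Kcnc2 132 and 124 CPM. The median log2 fold change of the list was 0.03 in both tissues. At an unadjusted p under 0.05, 2 of the 8 passed in each tissue, and they moved in opposite directions. Lhx6 was higher in KO, by 0.18 in the neocortex and 0.24 in the CA1. The potassium channel subunit Kcnab3 was lower in KO, and DESeq2 called it alone in each tissue. It had 75.0, 62.9 and 58.1 CPM in KO neocortex, against 83.7, 85.5 and 75.0 CPM in controls, and 23.6 and 18.1 CPM in KO CA1, against 27.4, 27.2 and 28.2 CPM in controls. Kcnab3, Lhx6, Kcnc1 and Kcnc2 were named after their values were seen.

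Neither plasma membrane SNARE passed edgeR's or DESeq2's test; Stx1a in the neocortex had an unadjusted p under 0.05. Stx1a (syntaxin-1A) had 359, 355 and 353 CPM in KO neocortex, against 379.8, 399.9 and 377 CPM in controls, a log2 difference of -0.12 with no overlap (edgeR adjusted p = 0.209). Snap25, whose product supplies further helices of the fusion complex, had log2 fold changes of -0.13 (SE 0.066) in the neocortex and -0.10 (SE 0.048) in the CA1. Nsf, the ATPase that takes spent SNARE complexes apart, had -0.11 in both tissues (SE 0.050 and 0.049, adjusted p = 0.264 and 0.242). All KO libraries lay below all controls for Nsf in both tissues, at 852 to 946 CPM in KO and 952 to 988 CPM in control neocortex, and at 1190.5 to 1227 CPM in KO and 1286 to 1331 CPM in control CA1.

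Among the complexins, which clamp and then promote fusion, Cplx2 fell in the neocortex. Cplx2 (ENSMUSG00000025867, chr13:54371349-54383917) had 1135, 1150.2 and 1136 CPM in KO neocortex, against 1376, 1294 and 1329 CPM in controls. The 3 KO libraries were close to each other and all lay below the controls. The mean was 1140.3 ± 8.57 CPM in KO and 1333 ± 41.2 CPM in control neocortex (SD, n = 3 each), 85.6% of the control level, with a log2 fold change of -0.23 (adjusted p = 0.0241 by edgeR, SE 0.045). It was -0.27 within ERCC set 1 and -0.21 within set 2, and in the fit with the set as a term it was -0.24 and no longer passed (adjusted p = 0.0579 by edgeR). Without D5130, D5132, D5133 or D5129 it was -0.22, -0.23, -0.22 or -0.20, with an adjusted p of 0.0786, 0.0735, 0.160 or 0.0914.

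In the CA1, Cplx2 had 1634 and 1474 CPM in KO, against 1435, 1751 and 1586 CPM in controls, a log2 fold change of -0.03 (SE 0.078) with overlapping libraries. The difference of its KO effects, CA1 minus neocortex, was 0.19 (adjusted p = 0.539 by edgeR, SE 0.093). Cplx1, another abundant complexin, had log2 fold changes of -0.14 (SE 0.056, adjusted p = 0.212) in the neocortex and -0.02 (SE 0.062) in the CA1. Cplx3, a complexin of subplate-derived cortical neurons, had 29.2, 31.5 and 34.4 CPM in KO neocortex, against 25.8, 29.1 and 31.8 CPM in controls, with no call. The subplate and layer 6b neurons that express it had 0 of 9 tested markers called by edgeR or DESeq2 in the neocortex, with 635 to 673 CPM in KO and 613 to 629 CPM in controls in sum. Most of this sum was Nptx1, with a mean of 499.9 CPM in KO and 467 CPM in control neocortex.

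Spike-in scaling turned both falls in the neocortex. When library sizes were set by the reads of the ERCC spike-in RNAs, the median log2 fold change of all genes became 1.06, and Vamp1 and Cplx2 stood at 0.64 and 0.85. Relative to that median they stood at -0.42 and -0.22. The ERCC reads differed widely between libraries, from 0.113% to 0.268% of gene and ERCC reads in KO and from 0.189% to 0.686% in controls, and with that scaling the standard errors were 0.74 and 0.75. All other fold changes given here are relative to the bulk of genes.

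**Figure D2:**
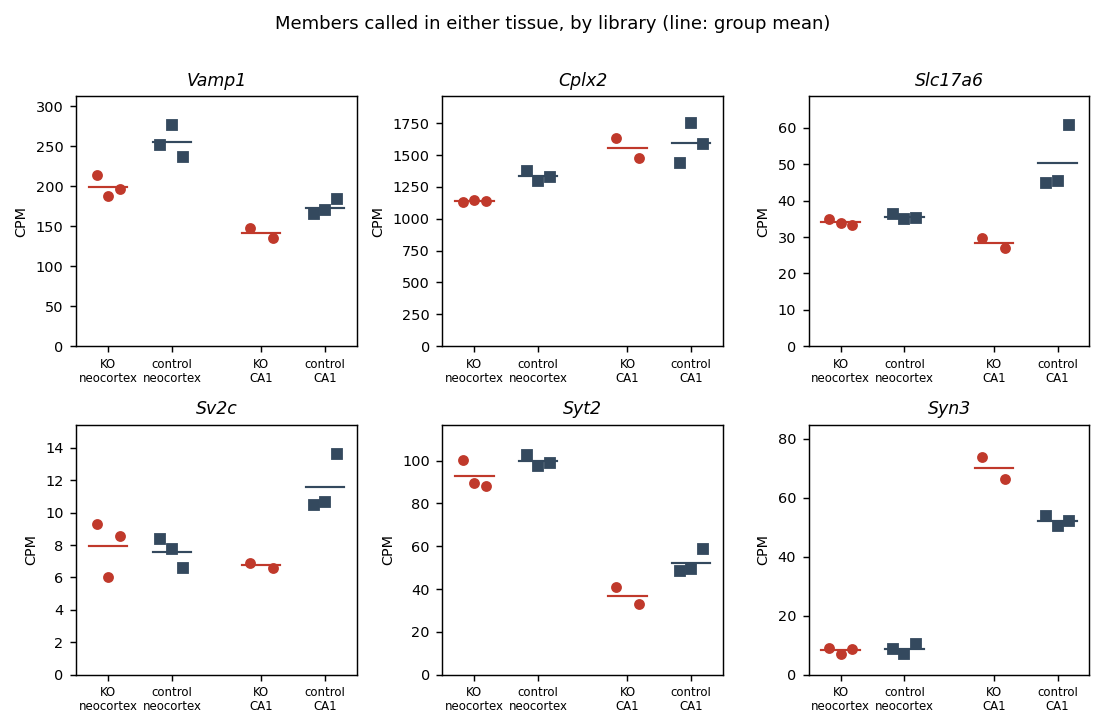
CPM of the 6 genes that passed the test in either tissue, by library (circles, KO; squares, control; lines, group means), each panel from 0. Vamp1 lies lower in KO in both tissues, Cplx2 in the neocortex, and Slc17a6, Sv2c and Syt2 in the CA1, while Syn3 lies higher in KO CA1 (neocortex directions are relative to the bulk of genes and turn above 0 with ERCC scaling).

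Of the 6 synaptotagmins, Syt2 alone passed the test, in the CA1. Syt2 (ENSMUSG00000026452, chr1:134646677-134762593), a fast calcium sensor of inhibitory and hindbrain terminals, had 40.7 and 33.2 CPM in KO CA1, against 48.3, 49.4 and 58.6 CPM in controls. Both KO libraries lay below all controls, and D5138 was the highest. The log2 fold change was -0.49 (adjusted p = 0.0216 by edgeR, SE 0.106), or 71.0% of the control level. In the neocortex Syt2 had 100.4, 89.4 and 88.2 CPM in KO, against 103, 97.6 and 99.1 CPM in controls, which overlapped. Without D5133 or D5138, its CA1 value was -0.36 or -0.40, with an adjusted p of 0.173 or 0.108.

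Syt1, the main calcium sensor of forebrain release, had 2223, 2007 and 2202 CPM in KO neocortex, against 1938, 1832 and 1926 CPM in controls. The KO libraries all lay above the controls, but the log2 fold change of 0.18 (SE 0.052) did not pass edgeR's test (adjusted p = 0.1000), while DESeq2 called it (adjusted p = 0.0499). Its CA1 values were 1610.1 and 1653 CPM in KO, against 1601, 1672 and 1594 CPM in controls. Syt4, Syt5, Syt7 and Syt11 lay between -0.09 and 0.08 in log2 fold change in both tissues, with no call. Syt7, a slower sensor linked to asynchronous release, had 0.08 (SE 0.047) in the neocortex and -0.09 (SE 0.079) in the CA1.

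The Rab3 GTPases, which tether vesicles through RIM, gave no call by edgeR or DESeq2, and Rab3a in the neocortex was the single one with an unadjusted p under 0.05. Rab3a, the main brain form, had 632, 586 and 621 CPM in KO neocortex, against 651, 694 and 647 CPM in controls. The KO libraries lay below the controls, with a log2 fold change of -0.12 (adjusted p = 0.253 by edgeR, SE 0.050). In the CA1 its value was -0.03 (SE 0.051). Rab3b and Rab3c lay between -0.02 and 0.09 in both tissues.

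The 7 active zone genes all had log2 fold changes above 0 in the neocortex, from 0.01 to 0.26, and none passed edgeR's test, although 2 had an unadjusted p under 0.05. Bsn (bassoon, a giant scaffold; ENSMUSG00000032589, chr9:108096022-108190384) had 662, 718 and 709 CPM in KO neocortex, against 644, 540.5 and 558 CPM in controls. All KO libraries lay above the controls. The log2 fold change was 0.26 (adjusted p = 0.0573 by edgeR, SE 0.065), with 0.10 in ERCC set 1 and 0.37 in set 2. Without D5129, the control highest for Bsn and the only control of set 1, it was 0.34 and passed (adjusted p = 0.0255 by edgeR). Without any other single library it did not pass, with adjusted p values of 0.077 to 0.258 by edgeR. In the fit with the set as a term it was 0.23 and did not pass (adjusted p = 0.136 by edgeR). In the CA1, Bsn had 641 and 563 CPM in KO, against 526, 543 and 481 CPM in controls, again with no overlap, and 0.22 (adjusted p = 0.0864 by edgeR, SE 0.067).

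Unc13a (Munc13-1), the priming factor of most forebrain glutamate terminals, had 582, 646 and 613 CPM in KO neocortex, against 566, 536 and 506 CPM in controls. The groups did not overlap, with 0.20 (adjusted p = 0.0905 by edgeR, SE 0.056). Its CA1 values were 480.5 and 447 CPM in KO, against 486, 456 and 476 CPM in controls, which overlapped. DESeq2 called Bsn (adjusted p = 0.0108) and Unc13a (0.0395) in the neocortex. Rims1, Rims2 and Pclo, also scaffolds, had 0.13, 0.10 and 0.12 in the neocortex and 0.01, -0.11 and -0.04 in the CA1. Unc13b and Erc2 had 0.07 and 0.01 in the neocortex and -0.07 and -0.10 in the CA1.

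Transcript length moved with the neocortex values. Over all protein-coding genes tested in the neocortex, the median log2 fold change was -0.06 for the 4425 genes whose longest transcript was at most 2.5 kb, 0.00 for the 6944 between 2.5 and 5 kb and 0.07 for the 3451 above 5 kb. The 5 release genes of the first class all lay below 0 (median -0.12), and of the 13 of the last class 9 lay above 0 (median 0.08). In the CA1 the 3 medians over all genes lay between -0.0048 and 0.00063, and those of the release genes -0.03, -0.02 and -0.04. The part of length in the neocortex values of single genes was not tested.

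Of the synapsins, which hold reserve vesicles together, Syn3 rose in the CA1. Syn3 (ENSMUSG00000059602, chr10:86055125-86498896, minus strand) had 73.6 and 66.3 CPM in KO CA1, against 53.9, 50.3 and 51.9 CPM in controls. Both KO libraries lay above all controls, and the log2 fold change was 0.43 (adjusted p = 0.00497 by edgeR, SE 0.072). In the neocortex it had 8.89, 6.97 and 8.71 CPM in KO, against 8.51, 6.98 and 10.3 CPM in controls, which overlapped. Without D5130 the CA1 value was 0.35 (adjusted p = 0.0559).

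Syn3 shares 1733 exon bases with Timp3, a metalloproteinase inhibitor gene on the opposite strand. Timp3 had 124.8 and 127 CPM in KO CA1, against 96.0, 83.4 and 86.7 CPM in controls, a log2 fold change of 0.50 (adjusted p = 0.00156 by edgeR, SE 0.070). Per 100 reads of Timp3 there were 52.4 to 59.0 reads of Syn3 in KO and 56.1 to 60.3 in control CA1, made with the unstranded kit. In the neocortex, made with the stranded kit, there were 6.24 to 6.67 in KO and 6.45 to 9.74 in controls. The rise of Syn3 in the CA1 and that of Timp3 cannot be told apart in these counts.

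**Figure D3:**
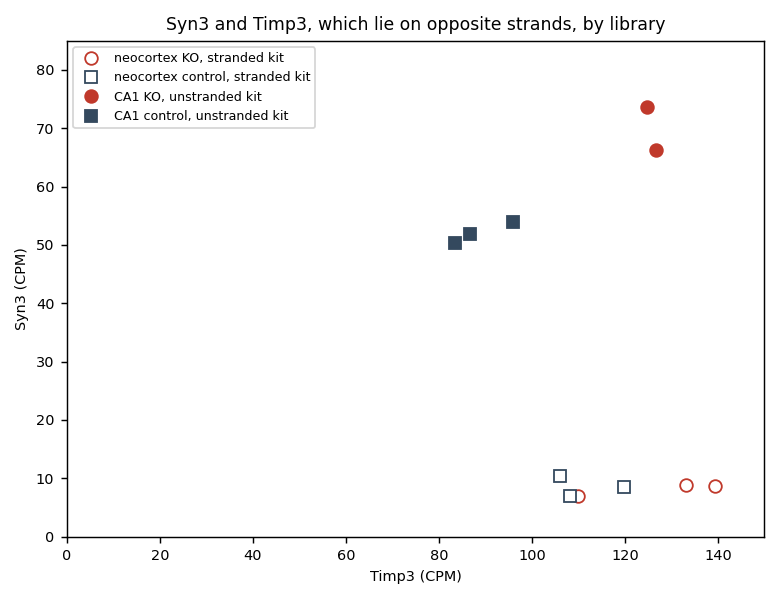
Syn3 against Timp3 in each library, in CPM (circles, KO; squares, control; filled, CA1 with the unstranded kit; open, neocortex with the stranded kit). The KO CA1 libraries are the highest for Syn3 and lie above the control CA1 libraries for both genes, while Syn3 stays at 10.3 CPM or less in the neocortex at similar levels of Timp3.

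Syn1 and Syn2, the synapsins of most terminals, did not pass the test. Syn1 had 832, 817 and 856 CPM in KO neocortex, against 898, 877 and 898 CPM in controls (log2 fold change -0.09, edgeR adjusted p = 0.301), with KO below all controls. Syn2 had 873 and 858 CPM in KO CA1, against 799.7, 809 and 753 CPM in controls (0.14, adjusted p = 0.186), with KO above all controls.

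Of the 5 vesicle membrane genes, Sv2c fell in the CA1. Sv2c (ENSMUSG00000051111, chr13:95954594-96132577), the member of the SV2 glycoprotein family found mainly in basal ganglia and hindbrain, had 6.90 and 6.57 CPM in KO CA1, against 10.4, 10.6 and 13.6 CPM in controls. The groups did not overlap, and D5138 was the highest. KO held 58.1% of the control level (log2 fold change -0.78, adjusted p = 0.0110 by edgeR, SE 0.152). In the neocortex it had 9.32, 5.999 and 8.57 CPM in KO, against 8.35, 7.77 and 6.56 CPM in controls. Without D5130, D5133 or D5138, the CA1 value was -0.82, -0.76 or -0.64, with an adjusted p of 0.0652, 0.0932 or 0.0701.

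Sv2a, the SV2 protein of most neurons, had 683, 659 and 686 CPM in KO neocortex, against 604, 604 and 613 CPM in controls. The groups did not overlap, and the value of 0.16 (SE 0.044) missed edgeR's threshold (adjusted p = 0.0887) and passed DESeq2's (0.0359). In the CA1 it was 0.05 (SE 0.049). Sv2b had -0.01 in both tissues. Syp (synaptophysin, a major protein of the vesicle membrane) had -0.0029 (SE 0.049) in the neocortex and 0.09 (SE 0.050) in the CA1. Synpr (synaptoporin), known from mossy fibre terminals of the hippocampus, had -0.17 (SE 0.071) in the neocortex and 0.17 (SE 0.086) in the CA1. Syp shares 875 exon bases with the antisense gene Gm14703, which had 2.45 to 3.76 CPM in the stranded neocortex libraries and 579.6 to 676 CPM in the unstranded CA1 libraries, so in the CA1 the 2 cannot be told apart.

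The vesicular glutamate transporters load the vesicle. Slc17a6 (VGLUT2; ENSMUSG00000030500, chr7:51622006-51671119), typical of thalamic and other subcortical neurons, showed the lowest log2 fold change of the 35 genes. It had 29.6 and 27.0 CPM in KO CA1, against 45.0, 45.3 and 60.7 CPM in controls. Both KO libraries lay below all controls, at 56.3% of the control level (log2 fold change -0.83, adjusted p = 0.00714 by edgeR, SE 0.131). With 1 library left out at a time, it ran from -0.90 to -0.67. D5138, the only female, was the highest control for Slc17a6, as for Vamp1, Syt2 and Sv2c. No KO animal was female, and the part of sex in these 4 falls was not tested. In the neocortex Slc17a6 had 34.87, 34.0 and 33.4 CPM in KO, against 36.3, 34.93 and 35.1 CPM in controls. The KO libraries lay just below the controls, and the log2 fold change was -0.06 (SE 0.062, adjusted p = 0.690). Without D5130 or D5133, the CA1 value was -0.90 or -0.77, with an adjusted p of 0.0724 or 0.127.

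Since VGLUT2 marks thalamic tissue, other thalamus markers were read beside it. None of the 9 tested passed edgeR's or DESeq2's test in the CA1, 4 had an unadjusted p under 0.05, and their summed level was 136 to 138 CPM in KO, against 109 to 118 CPM in control CA1. Most of that difference was Calb2, also a marker of GABA neurons, with a mean of 51.1 CPM in KO and 30.7 CPM in control CA1. The marker with the lowest p, Plekhg1, averaged 20.3 CPM in KO and 25.5 CPM in control CA1 (-0.33, adjusted p = 0.0599 by edgeR). The others with an unadjusted p under 0.05, Zic1 (0.53), Calb2 (0.74) and Tcf7l2 (0.38), were higher in KO CA1. The median log2 fold change of the list there was 0.27. The part of thalamic tissue in the Slc17a6 values was not tested. Gbx2, also on the thalamus list, was at or near 0 in all libraries, with at most 0.0757 CPM, and was left out of the test by the filter on low counts. Slc17a7 (VGLUT1), the transporter of most cortical and hippocampal glutamate terminals, had 1633, 1527 and 1586 CPM in KO neocortex, against 1702, 1739.5 and 1771 CPM in controls. Its KO libraries lay below the controls (-0.14, adjusted p = 0.145 by edgeR, SE 0.046), and in the CA1 its value was -0.02 (SE 0.061). Slc17a8 (VGLUT3), carried by few neurons of other transmitter types, had 3.37 to 3.85 CPM in KO and 3.48 to 3.80 CPM in control neocortex.

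KO and control libraries did not overlap for 12 of the 35 genes in the neocortex (34.3%), 4 with KO above and 8 with KO below; over all genes tested the share was 24%. In the CA1 they did not overlap for 12 of 35 (34.3%), 5 above and 7 below, against 33.7% over all genes. Of the 35 log2 fold changes, 17 lay above 0 in the neocortex (median -0.0029, against 0.0021 over all genes) and 10 in the CA1 (median -0.03, against -0.00041).

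A single fit of all 11 libraries asked whether the KO effect differed between the tissues. It treated the 2 libraries of an animal as independent. No member passed edgeR's test, against 0.0935% of 19256 genes. An unadjusted p under 0.05 was reached by 8 of the 35, against 1831 of the 19256 genes. DESeq2 called 1 member, and over all genes 68 with a difference above 0 and 91 below. Slc17a6 came nearest, with a log2 difference, CA1 minus neocortex, of -0.77 (adjusted p = 0.0559 by edgeR, SE 0.144). With the animal as a replicate block it was -0.64 (edgeR adjusted p = 0.0133), and DESeq2 without that block gave an adjusted p of 0.000453. Animals that gave a single tissue, D5129, D5132 and D5138, add nothing to the difference in the block fit. Values with the block thus rest on the 4 animals that gave both tissues. Sv2c had -0.86 (SE 0.241, adjusted p = 0.230), and with the animal block -0.98 (adjusted p = 0.0368). For Vamp1, lower in both tissues, the difference was 0.06 (SE 0.098, adjusted p = 0.905). The differences of Syt2 (-0.39, SE 0.126, adjusted p = 0.311) and Syn3 (0.50, SE 0.172, adjusted p = 0.340) did not pass.

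Per length, the release genes ranged from 0.701 to 485 RPKM (CPM divided by the exon length in kilobases) in control neocortex and from 1.19 to 330.2 in control CA1. RPKM values in control neocortex had a median of 60.7 over the 35 genes, against 4.94 over all protein-coding genes tested, and 31 of 35 lay above that value. In control CA1 the median was 40.8, against 4.95, with 29 of 35 above. With the union of exons as the length, Cplx1 had 440.2 RPKM in KO and 485 RPKM in control neocortex and 327 RPKM in KO and 330.2 RPKM in control CA1, and Vamp2 had 408 RPKM in KO and 417 RPKM in control neocortex. The order at the top depended on that length. With the longest transcript in its place, Vamp2 (720.0 RPKM), Syp (567 RPKM) and Slc17a7 (564 RPKM) stood above Cplx1 (485 RPKM) in control neocortex. In control CA1, Vamp2 (558 RPKM), Syp (512 RPKM), Slc17a7 (508 RPKM), Nsf (347 RPKM) and Syt1 (337 RPKM) then stood above Cplx1 (330.2 RPKM). Of the 4 genes that fell in the CA1 3 stood low in this order, Sv2c at 0.695 RPKM in KO and 1.19 RPKM in control, Syt2 at 4.84 RPKM in KO and 6.82 RPKM in control, and Slc17a6 at 5.25 RPKM in KO and 9.32 RPKM in control. Vamp1 stood at 13.9 RPKM in KO and 17.1 RPKM in control CA1, far below Vamp2.

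**Figure D4:**
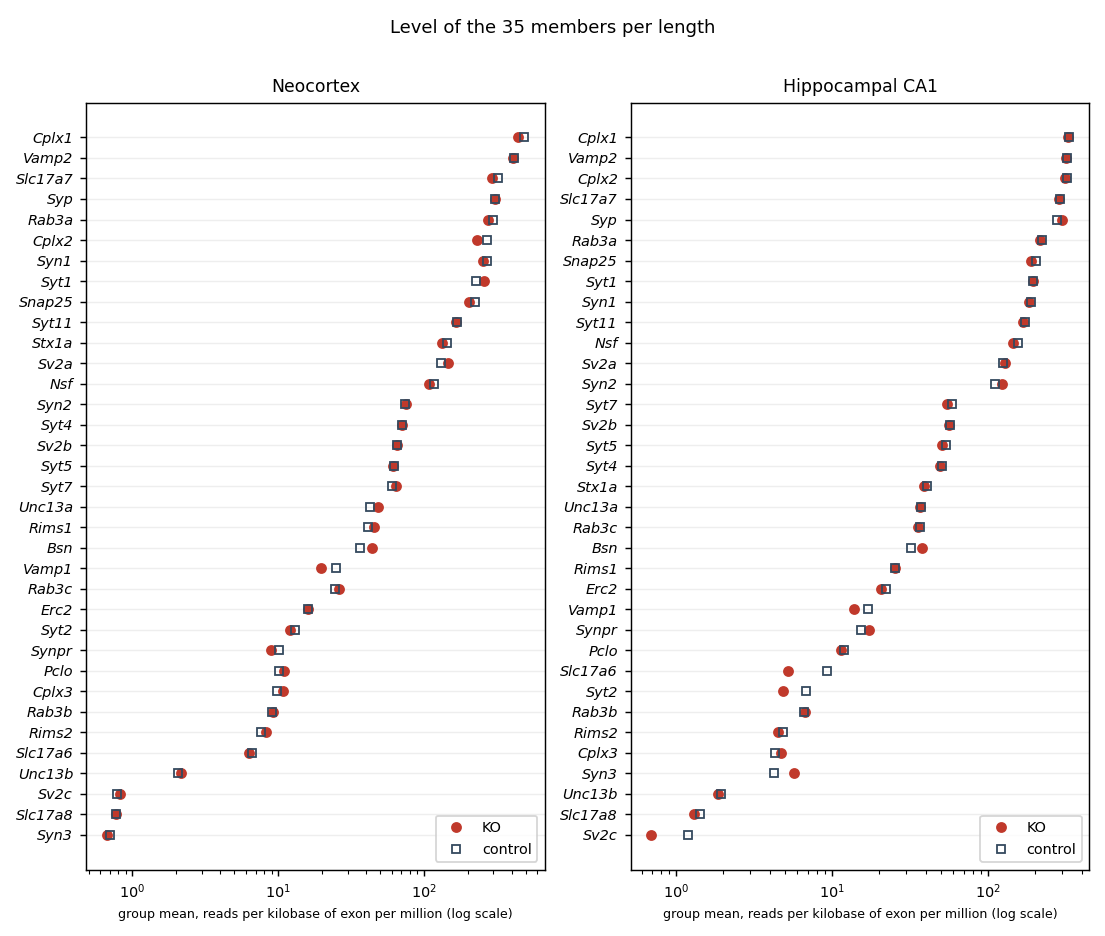
Mean RPKM of each of the 35 genes in KO (filled circles) and control libraries (open squares) of neocortex and CA1, on a log scale, ordered by the control level. The length is the union of exons; Cplx1 and Vamp2 then stand highest in both tissues, but with the longest transcript as the length Vamp2, Syp and Slc17a7 stand above Cplx1.

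Another 121 genes of the release cycle, in 4 lists, gave the surroundings of the 35, and 117 of them were tested in each tissue. In the neocortex 6 rose and 4 fell (8.55%), and in the CA1 2 rose and 6 fell (6.84%), read against 2.71% and 3.89% of all genes. Their median log2 fold changes were -0.01 in the neocortex and -0.04 in the CA1. Genes of active zone and calcium channels made up 4 of the 6 rises in the neocortex, out of 27 tested, with a list median of 0.08. Rab3d (0.81, SE 0.122), a Rab3 form of secretory cells, had the highest value. Ppfia4 (liprin-α4; 0.25), Rimbp2 (a RIM-binding scaffold; 0.27) and Cacna1a (the P/Q-type calcium channel; 0.23) also rose there. In the CA1, 1 gene of this list fell, the channel subunit Cacnb4 (-0.25, SE 0.066).

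Among 30 tested genes of the vesicle membrane, pump and transporters, 3 fell and 0 rose in the neocortex: the proton pump subunits Atp6v1g2 (-0.30) and Atp6v1d (-0.24) and Sncb (β-synuclein; -0.24). The list's summed level was 7695 to 8092 CPM in KO and 8171 to 8336 CPM in control neocortex. In the CA1 none of this list passed edgeR's or DESeq2's test, and 4 had an unadjusted p under 0.05. Among 30 tested SNARE partners, Vamp3 (cellubrevin, a SNARE also of glia) rose in both tissues, by 0.30 (SE 0.066) in the neocortex and 0.34 (SE 0.087) in the CA1. It was the only call of that list in the neocortex. In the CA1, 5 of the list fell, among them Doc2b (-0.34) and Rph3a (rabphilin; -0.28), which bind calcium or Rab3, and the synaptotagmins Syt16 (-0.35) and Syt12 (-0.34); Syt17 rose (0.35). Among 30 endocytosis genes, Ap2s1, a clathrin adaptor subunit, fell (-0.35, SE 0.056) and Itsn2 rose (0.30, SE 0.068) in the neocortex, and none passed edgeR's or DESeq2's test in the CA1, with 5 at an unadjusted p under 0.05.

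**Figure D5:**
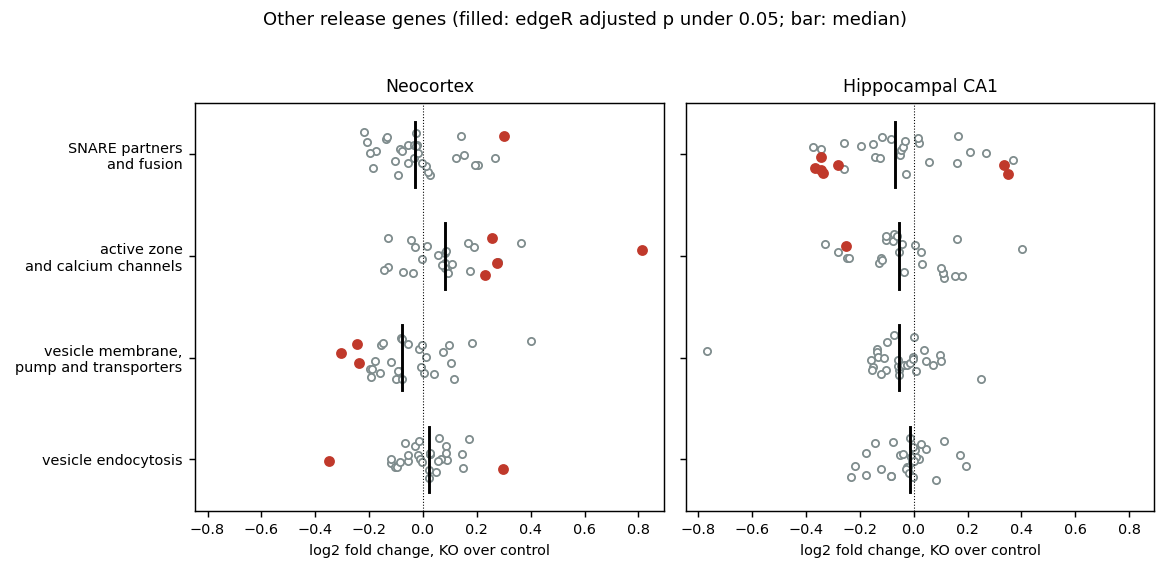
Log2 fold change, KO over control, of the 117 other release genes tested, by list, in neocortex (left) and CA1 (right); filled points passed an adjusted p of 0.05 and black bars are list medians. Active zone and calcium channel genes have a median of 0.08 in the neocortex and vesicle membrane genes one of -0.08, while the 4 CA1 medians lie between -0.07 and -0.02.

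Markers of cell types moved beside these genes, above all in the CA1. Of 12 oligodendrocyte markers, 8 fell in KO CA1, with summed levels of 3116 to 3121 CPM in KO and 3776 to 4525 CPM in controls. Microglia markers rose for 8 of 12 (548 to 614 CPM in KO, 387 to 409 CPM in controls). Meningeal markers rose for 4 of 9 (559.6 to 948 CPM in KO, 264 to 374 CPM in controls). Most of the meningeal sum was Ptgds, which did not pass (means of 532 CPM in KO and 227 CPM in controls, edgeR adjusted p = 0.317). Astrocyte markers rose for 2 of 10 (3077 to 3279 CPM in KO, 2528 to 2612 CPM in controls). One of them, Gfap, averaged 710 CPM in KO and 364 CPM in controls. Of 8 CA1 pyramidal markers 3 fell (436 to 476 CPM in KO, 603 to 659.8 CPM in controls), and of 12 excitatory neuron markers 2 fell (4615 to 4928 CPM in KO, 5255 to 5736 CPM in controls). Of 13 pan-neuronal markers 0 passed edgeR's test (4989 to 5249 CPM in KO, 5479 to 5593 CPM in controls), 5 had an unadjusted p under 0.05 and DESeq2 called 2. Of 12 GABA neuron markers 0 passed edgeR's or DESeq2's test (1408 to 1419 CPM in KO, 1235 to 1414 CPM in controls), and 3 had an unadjusted p under 0.05. The part of these shifts in the release genes was not tested.

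In the neocortex, 3 of 13 pan-neuronal markers fell (5132.8 to 5343 CPM in KO against 5655 to 6005 CPM in controls), as did 3 of 12 excitatory neuron markers (4335 to 4416 CPM in KO, 4962 to 5152 CPM in controls) and 4 of 11 tested striatum markers (296 to 329 CPM in KO, 368 to 429 CPM in controls). Of 12 microglia markers 5 rose (594 to 654 CPM in KO, 553 to 582 CPM in controls). No marker of the lists for GABA neurons, subplate and layer 6b, thalamus, astrocytes, oligodendrocytes, endothelial and mural cells or meninges passed edgeR's test there. At an unadjusted p under 0.05 these lists held 3, 0, 0, 3, 2, 1 and 0 genes in that order, and DESeq2 called 1, of the astrocyte list. Wfs1, listed for CA1 pyramidal cells, fell in the neocortex too (-0.58). For dentate gyrus and CA3, 2 of 12 fell in the neocortex and 1 of 13 rose in the CA1; for CA2, 1 of 7 rose in the neocortex, and 1 rose and 1 fell in the CA1. In the CA1, 1 of 9 subplate markers and 1 of 10 striatum markers fell, and 2 of 10 endothelial and mural markers rose. No marker in any list was at 0 in all libraries of a tissue.

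Last, fold changes were set beside the seed matches, again without miR-124-3p and miR-485-5p. In the neocortex the median log2 fold change was 0.01 for the 23 genes with a match and -0.02 for those without, and over all genes 0.03 with and -0.02 without. In the CA1 it was -0.03 with and -0.05 without a match, and over all genes -0.0033 with and 0.0023 without. By class of transcript length, the medians over all protein-coding genes ran from -0.06 to 0.07 in the neocortex. The part of length in the values with and without a match was not tested. Of the 5 CA1 calls, 4 held a match, against 23 of all 35 genes (65.7%). Syt2, Sv2c and Slc17a6 were lower in KO. Syn3 was higher, but its rise and that of Timp3 cannot be told apart in these counts. In the neocortex, Cplx2 held 4 and was lower in KO.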

How the data were processed

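Per the labels' protocols, polyadenylated RNA was extracted with TRIzol and sequenced with a stranded kit and ERCC spike-ins (neocortex) or an unstranded kit (CA1). The deposited values are raw read counts per Ensembl gene, made by the authors with FastQC, GSNAP, SAMtools and bedtools on GRCm38, per the submitters' processing notes. Versions, the counting rule and the strand setting are not given in the sources used here. The 92 ERCC rows stayed out of library sizes and tests. Symbols, exon lengths and 3′ UTRs came from GENCODE M21, which named 37607 of the 39017 genes.

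KO was compared with control within each tissue with edgeR 4.0.16 (R 4.3.3): TMM scaling, filterByExpr, robust quasi-likelihood fit, F-test, Benjamini-Hochberg adjustment over all genes, threshold 0.05, two-sided. Each SE was derived from the log2 fold change and F. CPM use TMM-scaled library sizes, and RPKM divide CPM by the length of the union of exons. Alternatives were DESeq2 1.42.0, other scalings and filters, single libraries left out, an ERCC set term and the animal as a block. The ERCC sets are the 2 groups into which the neocortex libraries fall by their profile over ERCC RNAs with at least 50 reads. Their distances were at most 1.29 within and at least 5.23 between sets. The scripts were tested on simulated data.

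Animals, which the labels name, are the replicates, and 4 gave both tissues, so the labels pair the tissues by animal. Within groups, chi-square values per gene between libraries were 9.99 to 22.1, so none was a copy. The members and lists were chosen with earlier results of these data known. All 35 members are accounted for. Of each other list, up to 4 passing genes with the smallest p in a tissue were named; where more are named, they were chosen after their values were seen. Timp3 and Gm14703 were named for their overlap with members.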

Additional observations from a re-analysis of the deposited data

How the results depend on the processing

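With 2 to 3 libraries a group, single libraries set the counts. In the neocortex 2 members were called; DESeq2 called 6 (adding Bsn, Sv2a, Syt1 and Unc13a, all higher in KO), edgeR without the filter on low counts 4, 1 fit of all 11 libraries 1, and the fit with an ERCC set term 0. With library sizes set by ERCC reads 0 were called, and Cplx2 and Vamp1 stood at 0.8465 and 0.6404 in place of their falls, while the median gene shifted to 1.06. Leaving out 1 library each gave 0 to 2 (0 without D5132 or D5133, 1 without D5130 or D5129). The counts over all genes moved as well. They were 256 higher and 204 lower in KO in the main neocortex fit, and 487 and 435 with DESeq2. With the ERCC set term they were 122 and 69, without D5132 100 and 44, and without D5133 16 and 3. For the CA1 they were 452 and 258, and 177 and 67 without D5138. In the CA1 5 members were called, and leaving out 1 library each gave 1 to 5 (1 without D5133, 2 without D5130 or D5138); without a KO library the lone other is assumed to vary like the controls. For the interaction 0 were called; DESeq2 called 1, RLE scaling 1, no filter 3, the animal as a replicate block 2 (Slc17a6 and Sv2c), and leaving out 1 library each gave 0 to 1. Of the other release genes, 10 were called in the neocortex (DESeq2 19, leaving out 1 library 0 to 8, with 0 without D5133, 4 without D5130 or D5132 and 5 without D5129 or D5134) and 8 in the CA1 (leaving out 1 library 0 to 6, with 0 without D5138, 2 without D5130 or D5133 and 5 without D5134). With the longest transcript as the length, the median control level of the members was 68.6 in place of 60.7 RPKM in the neocortex and 51.1 in place of 40.8 RPKM in the CA1. Over all values of single members under all alternatives, 1393 kept their direction and side of the threshold or were never called, 22 fell below it, 18 passed it and 2 turned. Members with few reads were measured less precisely: the median SE was 0.056 over the members in the neocortex, against 0.140 for Slc17a8 (at least 152 reads a library), 0.150 for Syn3 (298) and 0.162 for Sv2c (304), and Cplx3 in the CA1 had 0.245 (275).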
